A study of Mus musculus with 4 samples.

Results

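Major histocompatibility complex class II molecules display peptides from ingested proteins to CD4 T cells. Each is an alpha and a beta chain that assemble around the invariant chain, encoded by Cd74, which blocks the groove until it is cut in the endosome. H2-DM then exchanges the last fragment of the invariant chain for other peptides, H2-O restrains H2-DM, and Ciita is the coactivator that switches on the promoters of the whole set. In skin, dendritic cells carry the molecules constitutively, and macrophages and monocytes gain them on activation, classically by interferon-gamma.

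The 9 genes described were chosen by name: the I-A chains H2-Aa and H2-Ab1, the I-E beta chains H2-Eb1 and H2-Eb2, the H2-DM chains H2-DMa, H2-DMb1 and H2-DMb2, the invariant chain Cd74, and Ciita. They are 9 of 21739 gene symbols listed in any library, and all 9 are listed in all 4 libraries. C57/BL6j mice carry no working I-E alpha gene, so their I-E beta chains form no I-E molecule at the surface. Neither symbol of the I-E alpha gene, H2-Ea or H2-Ea-ps, was listed in any library.

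The libraries came from skin around full-thickness wounds of C57/BL6j mice that were 6 weeks old, taken on day 7. The libraries labelled Control 1 and Control 2 came from wounds injected with PBS, and hucMSC-Exo 1 and hucMSC-Exo 2 from wounds injected with exosomes of human umbilical cord mesenchymal stem cells, with 1 mouse per library. Groups were taken from the sample titles. The tissue labels name parts of the gut, while the cell type label and the protocol say skin. The naming of the files sets the groups out differently from the titles, so each comparison between the groups holds only if the titles do. The paper reports more neutrophils and more macrophages with exosomes. Sorted by marker genes (below), neutrophils numbered 39 and 286 in Control 1 and Control 2, and 67 and 466 in hucMSC-Exo 1 and hucMSC-Exo 2. Macrophages numbered 150 and 420 against 208 and 218. The titled groups thus overlapped in both counts. The paper's numbers are for clusters and shares of all its cells, of which the deposited matrices hold only a part. Monocytes here formed a gate of their own, so these counts are not like for like with the paper's. Which naming is right was not tested.

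Libraries held 1098 to 2422 deposited cells, of which 952 to 2074 (6443 in all) had 200 to 3000 detected genes and at most 10% mitochondrial counts. The median depth of the kept cells was 3747 to 4393 unique molecular identifiers (UMIs, each counting 1 captured RNA molecule), and no 2 libraries shared more than 2 cell barcodes. Cells were sorted computationally into gates by 10-gene marker lists that held no class II gene. The gates took 114 dendritic cells, 996 macrophages, 350 monocytes, 64 group 2 innate lymphoid cells (ILC2) and 2291 T cells, and 1390 cells fell in no gate. All 10 C1q-high macrophage markers, all 10 monocyte markers and all 10 T cell markers were seen in at least 10% of the cells of their own gate, as were 9 of 10 type 2 dendritic, 9 of 10 ILC2, 8 of 10 osteoclast-like, 7 of 10 mature dendritic and 5 of 10 type 1 dendritic markers. The macrophage and monocyte gates shared markers: 8 of 10 monocyte markers reached 10% of macrophages, and 6 of 10 C1q-high markers reached 10% of monocytes. In the order Control 1, Control 2, hucMSC-Exo 1 and hucMSC-Exo 2, which holds throughout, the dendritic gate had 8, 59, 15 and 32 cells, and the ILC2 gate had 5, 10, 42 and 7. These small sums set the limit on those gates. Of the 114 dendritic cells, 50 passed at the lowest marker lead allowed, and another 58 cells missed the gate by 1 marker.

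Of the 9 genes 7 form 1 cluster on chromosome 17 of GRCm38 (mm10). H2-DMa spans 34119541 to 34139101, H2-DMb2 34143307 to 34151555, H2-DMb1 34153072 to 34160230 and H2-Ab1 34257689 to 34269419, all on the plus strand. H2-Aa lies on the minus strand at 34282744 to 34287823, followed by H2-Eb1 at 34305867 to 34316674 and H2-Eb2 at 34325665 to 34341412. Ciita lies on chromosome 16 at 10480059 to 10528418. H2-DMb1 and H2-DMb2 are near copies: 27.2% of the 50-base words in H2-DMb1 transcripts also occur in those of H2-DMb2, so counts split between them are uncertain. Another gene overlaps H2-DMa on the same strand, so reads in that overlap cannot always be told apart. Mir5107 overlaps Cd74 on the same strand. H2-DMa, H2-Eb1 and Ciita also have overlaps on the opposite strand.

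Class II promoters carry a conserved pair of motifs, the X box bound by the RFX complex and the Y box bound by NF-Y, on which Ciita docks. The RefSeq promoter table (GRCm38.p6, 250 bases before to 50 after each start) held 6 of the 9 genes. H2-Ab1, Cd74 and Ciita were not in it. Of the 6 promoters, 5 held the Y box letters TGATTGG, which 7.82% of all 32851 promoter windows hold on either strand. A further search found AACNGATG in 4 of them. These letters are part of the X box, 2.32% of all windows hold them, and 0.186% hold both motifs. The pair stood 20 or 21 bases apart in all 4. The windows run from 60 bases before to 20 bases after the Y box, 5′ to 3′ on the strand of the gene, with the motif letters in capitals. They are shown because genes seen in all antigen presenting gates and genes seen almost only in dendritic cells hold the same letters.
H2-Aa (chr17:34287847-34287933, minus strand): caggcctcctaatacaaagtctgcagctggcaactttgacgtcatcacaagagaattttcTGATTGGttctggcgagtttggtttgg
H2-Eb1 (chr17:34305746-34305832, plus strand): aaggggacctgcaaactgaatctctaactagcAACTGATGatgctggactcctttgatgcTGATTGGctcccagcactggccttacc
H2-Eb2 (chr17:34325513-34325599, plus strand): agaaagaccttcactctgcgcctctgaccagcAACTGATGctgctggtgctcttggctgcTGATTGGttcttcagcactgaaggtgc
H2-DMb1 (chr17:34153068-34153154, plus strand): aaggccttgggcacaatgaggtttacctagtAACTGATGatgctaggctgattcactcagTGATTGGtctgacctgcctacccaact
H2-DMb2 (chr17:34145097-34145183, plus strand): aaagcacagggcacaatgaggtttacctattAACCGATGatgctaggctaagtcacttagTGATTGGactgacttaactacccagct
Neither listed start of H2-DMa had either set of letters in its window.

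All levels are UMIs of a gene per 1000000 UMIs (CPM) of the summed cells of a gate in 1 library. With 3′ counts and unequal 3′ ends, they compare a gene between gates and not one gene with another. H2-Aa, H2-Ab1, H2-Eb1, Cd74 and H2-DMb1 followed 1 order: dendritic cells highest, then macrophages, then monocytes, with T cells and ILC2 far below. The macrophage and monocyte ranges overlapped for H2-DMa, H2-DMb2, H2-Eb2 and Ciita. H2-Ab1, the I-A beta chain, stood at 10092, 11264, 13323 and 10782 CPM in the dendritic gate. In the macrophage gate it was 4523, 3293, 4421 and 3868 CPM. In the monocyte gate it was 2729, 1596, 1856 and 1731 CPM. No library of one of these gates overlapped a library of the next. Cd74, the invariant chain, kept the same order without overlap. It measured 20496, 19060, 20075 and 17318 CPM in dendritic cells, 9882, 6519, 8772 and 7894 CPM in macrophages, and 5522, 3186, 4300 and 4001 CPM in monocytes. H2-Aa and H2-Eb1 followed it: their medians over the 4 libraries were 11023 and 9872 CPM in dendritic cells, 4791 and 4199 CPM in macrophages, and 1969 and 1450 CPM in monocytes. H2-DMb1 also kept the 3 gates apart, with its lowest macrophage value (219 CPM) just above its highest monocyte value (217 CPM).

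**Figure D1:**
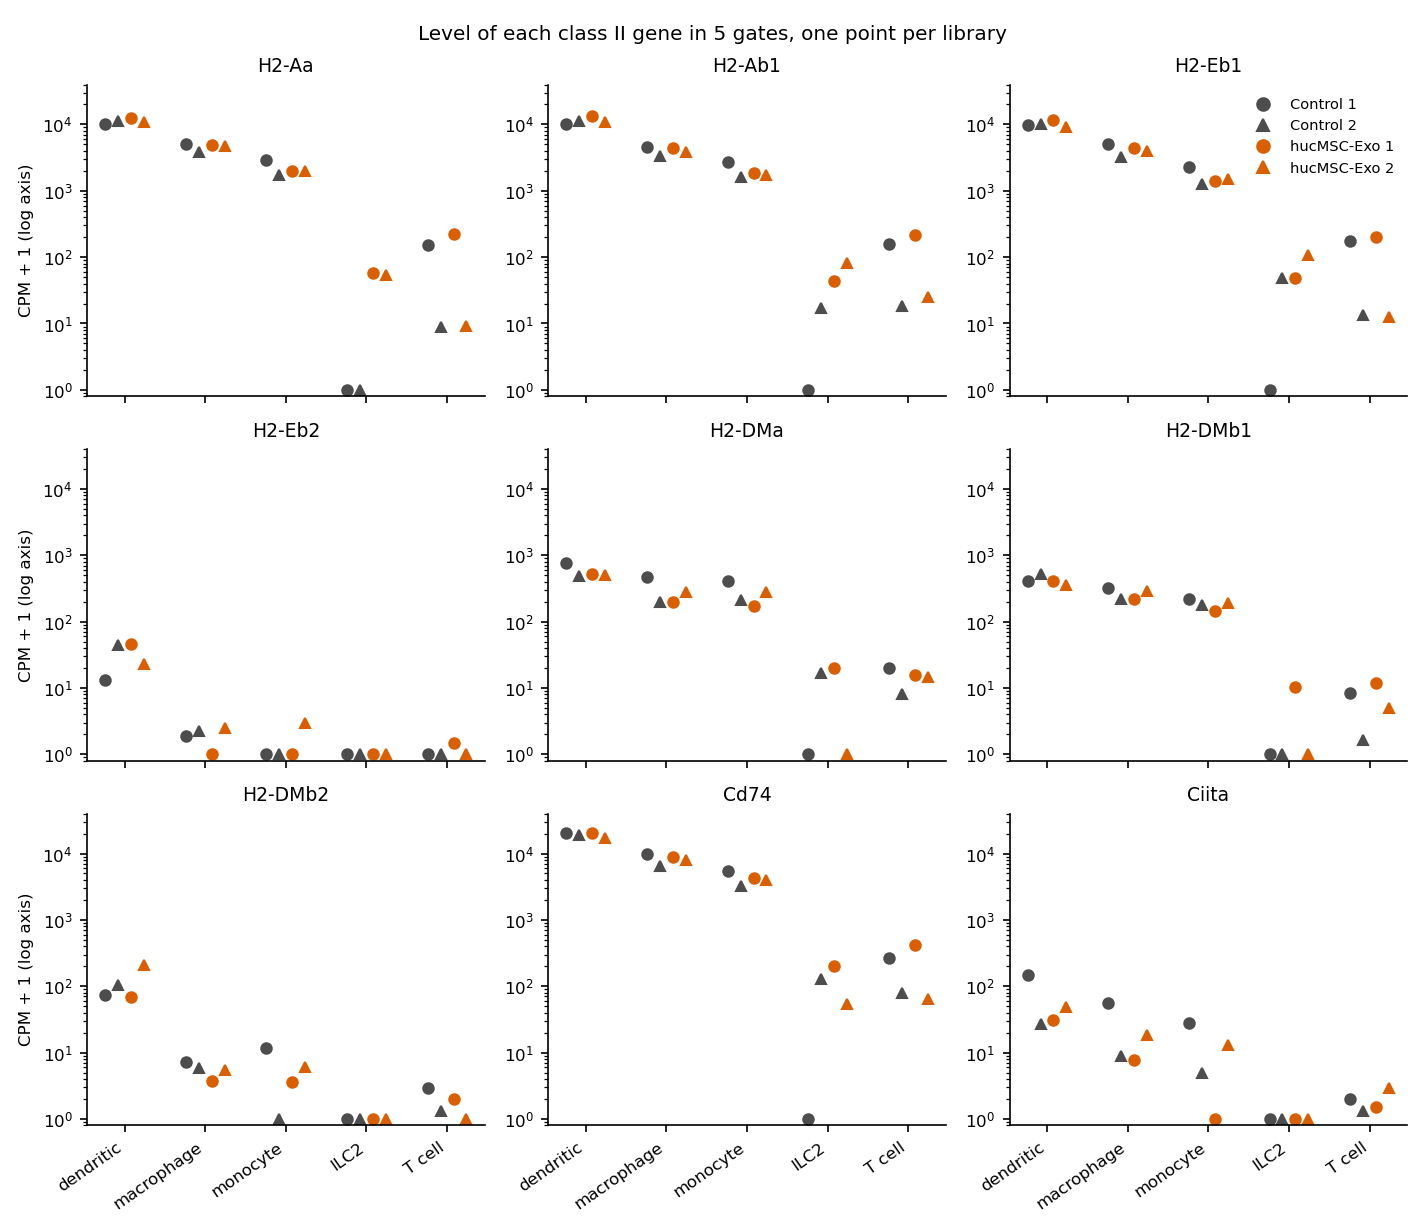
CPM + 1 on a log axis of the 9 class II genes in the 5 gates, 1 point per library, grey for Control and orange for hucMSC-Exo, circles for replicate 1 and triangles for replicate 2. H2-Aa, H2-Ab1, H2-Eb1, Cd74 and H2-DMb1 step down from dendritic cells to macrophages to monocytes without overlap, while H2-Eb2 and H2-DMb2 stand clear only in dendritic cells.

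In sums per gate and library, with the library as a block, H2-Aa, H2-Ab1, H2-Eb1, Cd74, H2-DMa, H2-DMb1 and Ciita were higher in dendritic cells than in macrophages by edgeR's quasi-likelihood test, where 11.3% of the 9248 genes tested were called higher and 15.5% lower. H2-DMb2 and H2-Eb2 were called as well, but they passed the filter on low counts through the dendritic gate, which fixed their direction, and they are left out of that tally. Among the chains, H2-Ab1 was higher by 1.84 on the log2 scale (SE 0.37, adjusted p = 0.00028) and Cd74, which lies on chromosome 18 at 60803848 to 60812652, by 1.46 (SE 0.30, adjusted p = 0.00040). For dendritic cells 3 libraries entered, since Control 1 had under 10 of them. Without the library labelled Control 2, which held 59 of the 114 dendritic cells, H2-Aa, H2-DMb1 and Ciita no longer passed, and without the library block H2-Eb1 was lost in addition, with Ciita at 0.84 (adjusted p = 0.41).

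H2-DMb2 and H2-Eb2, the second beta chains of H2-DM and I-E, are given as levels with no test, since it was the dendritic gate that brought them past the filter. H2-DMb2, the second H2-DM beta chain, measured 72.3, 105, 67.4 and 204 CPM in dendritic cells and 6.18, 4.79, 2.70 and 4.39 CPM in macrophages. The difference of its neighbour H2-DMb1 was 0.95 on the log2 scale (SE 0.28, adjusted p = 0.012). H2-Eb2 rested on few molecules: 1, 27, 6 and 6 UMIs in dendritic cells, or 12.1, 43.6, 44.9 and 21.9 CPM, and 0 to 4 UMIs in macrophages. The paralogs differed in how many macrophages held them: 44.3% to 63.3% of macrophages had a UMI of H2-DMb1 and 1.92% to 4.00% had one of H2-DMb2.

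Of 30 other genes listed for the pathway, 26 were tested, 11 were higher in dendritic cells and 5 lower. Both chains of H2-O, the restraint on H2-DM, were counted as higher, but both were low in macrophages and monocytes. The filter on low counts may thus have fixed their direction too, and their calls are not read as test results. H2-Oa stood at 52.4 to 142 CPM in dendritic cells and 0.732 to 2.70 CPM in macrophages. The costimulatory genes Cd80, Cd86 and Cd40 were higher by 2.91, 1.48 and 1.44, and Cd83, which counters the ubiquitin ligase that removes class II from the surface, by 1.93. That ligase, March1, was lower by 2.55. The endosomal proteases Ctsl, Lgmn and Ctss were also lower. Ctsl, which trims the invariant chain in thymic epithelium, was lower by 5.49, and Ctss, the main trimming enzyme of antigen presenting cells, by 1.21. Of the factors at class II promoters, Rfxap, Rfxank, Nfya, Nfyb, Nfyc and Creb1 were tested and did not pass, with log2 differences of -0.64 (Nfyc) to 0.80 (Nfyb).

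Macrophages stood above monocytes for 2 genes of the 9 that passed, against 9.30% of all 9248 genes called higher and 7.79% called lower. These were H2-Eb1, higher by 1.26 (SE 0.40, adjusted p = 0.026), and Cd74, higher by 0.86 (SE 0.27, adjusted p = 0.026). H2-Ab1 differed by 0.94 (SE 0.33, adjusted p = 0.051) and H2-Aa by 1.02 (SE 0.44, adjusted p = 0.12), although the library ranges of the 2 gates did not overlap for either gene. H2-DMa overlapped between the gates, at 466, 200, 198 and 283 CPM in macrophages and 413, 208, 173 and 274 CPM in monocytes, with a 95% interval of the log2 difference from -0.39 to 0.35. The call for the chains depended on the settings: 0 genes passed by DESeq2 and 4 with a stricter gate. With cells of over 3000 detected genes kept, which takes the macrophage gate from 996 to 1294 cells, H2-Ab1 differed by 0.25 (adjusted p = 0.35) and Cd74 by 0.21 (adjusted p = 0.41), and the calls went both ways. H2-Eb1 was then higher in macrophages by 0.56 (adjusted p = 0.042), while H2-DMa was lower (-0.62, adjusted p = 0.025) and so was H2-DMb2 (-1.48, adjusted p = 0.043).

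Single macrophages spread widely around their sums. H2-Aa, H2-Ab1, H2-Eb1 and Cd74 together made up 4.81% to 5.75% of all UMIs in the dendritic gate, 1.68% to 2.45% in macrophages and 0.780% to 1.34% in monocytes. They took 1% or more of the cell's UMIs in 8, 55, 15 and 28 dendritic cells, and 0 dendritic cells lacked them. Among macrophages 10, 89, 25 and 42 cells had no UMI of the 4. The share at 1% or more was 68.7%, 45.2%, 63.5% and 51.8% of macrophages, and 39.3%, 21.3%, 36.5% and 33.8% of monocytes. Macrophages and monocytes thus held both class II-rich and class II-empty cells in every library, and the 2 groups overlapped. Depth did not order these cells alike in all libraries: macrophages at 1% or more had a median of 8048, 8610, 7112 and 7271 UMIs, and those under 0.1% had 8558, 7083, 7497 and 4863.

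**Figure D2:**
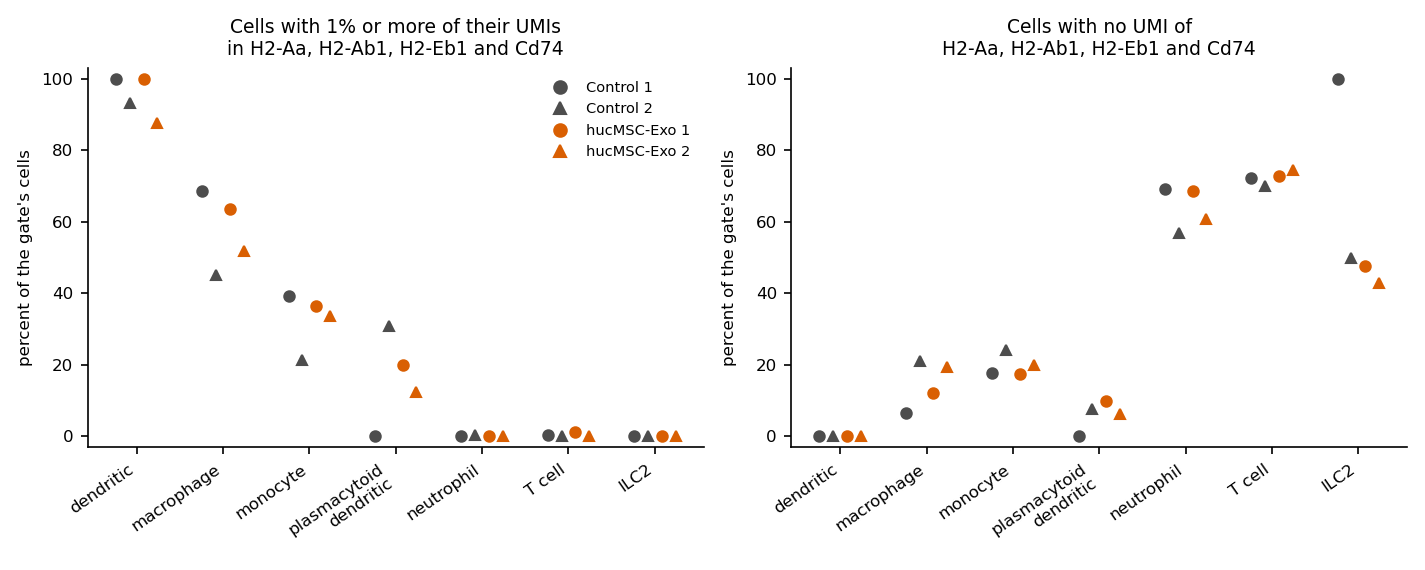
Percent of the cells of each gate and library with 1% or more of their UMIs in H2-Aa, H2-Ab1, H2-Eb1 and Cd74 (left) and with no UMI of the 4 (right), grey for Control, orange for hucMSC-Exo, circles for replicate 1 and triangles for replicate 2. The share at 1% or more runs from 87.5% to 100% in dendritic cells and from 45.2% to 68.7% in macrophages.

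Macrophages with 1% or more were set beside those under 0.1% in each library, as a description with no test, since the split was made on the class II genes themselves. Poor cells were 15.3%, 39.5%, 21.6% and 35.8% of macrophages, and 24 to 64 cells per library lay between. The named genes are among those with the largest ratios in all 4 libraries. Rich cells had more Mgl2, a lectin of dendritic cells and alternatively activated macrophages, at 107, 230, 107 and 265 CPM against 10.0, 5.03, 14.3 and 9.24 CPM. They also had more Il1b, the interleukin-1 beta gene, at 1528 to 2769 CPM against 347 to 793 CPM, and more of the decoy receptor Il1r2. Poor cells had more Arg1, the arginase of wound macrophages, at 120, 487, 184 and 1138 CPM against 9.63, 133, 31.3 and 95.1 CPM. They had more Spp1, which encodes osteopontin, at 1350 to 2407 CPM against 134 to 494 CPM, and more Ctsl, at 1280 to 4346 CPM against 588 to 1402 CPM. Each of these genes was picked for moving the same way in 4 of 4 libraries, so that agreement carries no weight of its own. Some of them also served as gate markers: Mgl2 in the type 2 dendritic list, Spp1 in the osteoclast-like list and Il1r2 in the neutrophil list.

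Osteoclast-like macrophages, marked by genes such as Ctsk and Mmp12, had less class II than C1q-high macrophages. Only Control 2, with 20 such cells, and hucMSC-Exo 1, with 17, held 10 or more. H2-Ab1 was 705 CPM in Control 2 and 936 CPM in hucMSC-Exo 1, against 3471 and 4879 CPM in C1q-high cells of the same libraries. Of the 7 genes tested 6 were lower and none higher, against 5.11% of the 7787 genes tested called lower and 2.27% called higher. H2-Ab1 was lower by 2.47 (log2 difference -2.47, SE 0.30, adjusted p = 9.2e-05), H2-Eb1 by 2.62 (-2.62, SE 0.30, adjusted p = 5.2e-05) and Cd74 by 2.14 (-2.14, SE 0.31, adjusted p = 0.00039). H2-DMa and H2-DMb1 were lower as well. The median log2 difference of the 7 was -2.36 beside -0.18 for all genes. Ciita is counted in that median but was listed at 0 UMIs in these osteoclast-like cells. It passed the filter through the C1q-high cells, which fixed its direction. With cells of over 3000 detected genes kept, the difference of H2-Ab1 was -4.34 (SE 0.28, adjusted p = 1.7e-06). Of 23 pathway genes tested, 5 were lower, among them Cd83 (log2 difference -4.36), Lgmn (-2.04) and Cd86 (-1.85), and 0 were higher.

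The dendritic gate held subsets that differed in the set. Conventional type 2 cells, marked by Cd209a and Mgl2, had 14094, 12666, 13966 and 13205 CPM of H2-Ab1. Mature cells, marked by Ccr7 and Fscn1, had 6889, 5713, 7167 and 4375 CPM, lower in each library, although the counts of mature cells were 3, 17, 1 and 9. With 10 cells a sum the comparison could not be fitted. With sums of 5 or more cells, a limit set after the data were seen, Control 2 and hucMSC-Exo 2 held mature cells and all 4 libraries held conventional cells of types 1 and 2. Then 6 of the 8 genes tested were lower in mature than in conventional cells and 1 was higher, against 10.3% of the 1863 genes tested called lower and 12.3% called higher. H2-Ab1 differed by -1.30 (SE 0.22, adjusted p = 0.0010). H2-DMb1 differed by -3.08 (SE 0.47, adjusted p = 0.00053), with 601 CPM in type 2 and 33.6 CPM in mature cells of Control 2, and 440 and 106 CPM in those of hucMSC-Exo 2. Ciita was the 1 gene called higher, at 1.99 (SE 0.64, adjusted p = 0.041), with 17.0 and 50.4 CPM in Control 2 and 15.3 and 136 CPM in hucMSC-Exo 2, on 6 and 9 UMIs in mature cells. In the 2 libraries with fewer mature cells Ciita ran the other way, at 200 CPM in type 2 and 35.3 CPM in mature cells of Control 1 and at 28.3 and 0 CPM in hucMSC-Exo 1. Its call was lost by DESeq2 (adjusted p = 0.49), with a stricter gate (0.34), without the library block (0.53) and without the filter on low counts (0.17), and it was not tested without Control 1. By DESeq2 2 genes passed, both lower. Without the library Control 1, which gave 5 conventional cells, 3 genes passed, H2-Ab1 among them at -1.33 (adjusted p = 0.010).

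H2-Eb2 ran against the other chains. Mature cells held 1, 19, 5 and 5 of its 1, 27, 6 and 6 UMIs in the dendritic gate, and type 2 cells held 0, 7, 1 and 1. It was too low for the filter and is given as counts with no test. H2-DMb2 did not pass, at -0.17 (SE 0.53). Among the pathway genes tested Irf1 (4.20), Cd40 (2.64) and Irf8 (2.33) were higher in mature cells, and Ifngr1, a chain of the interferon-gamma receptor, was lower (-2.14).

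**Figure D3:**
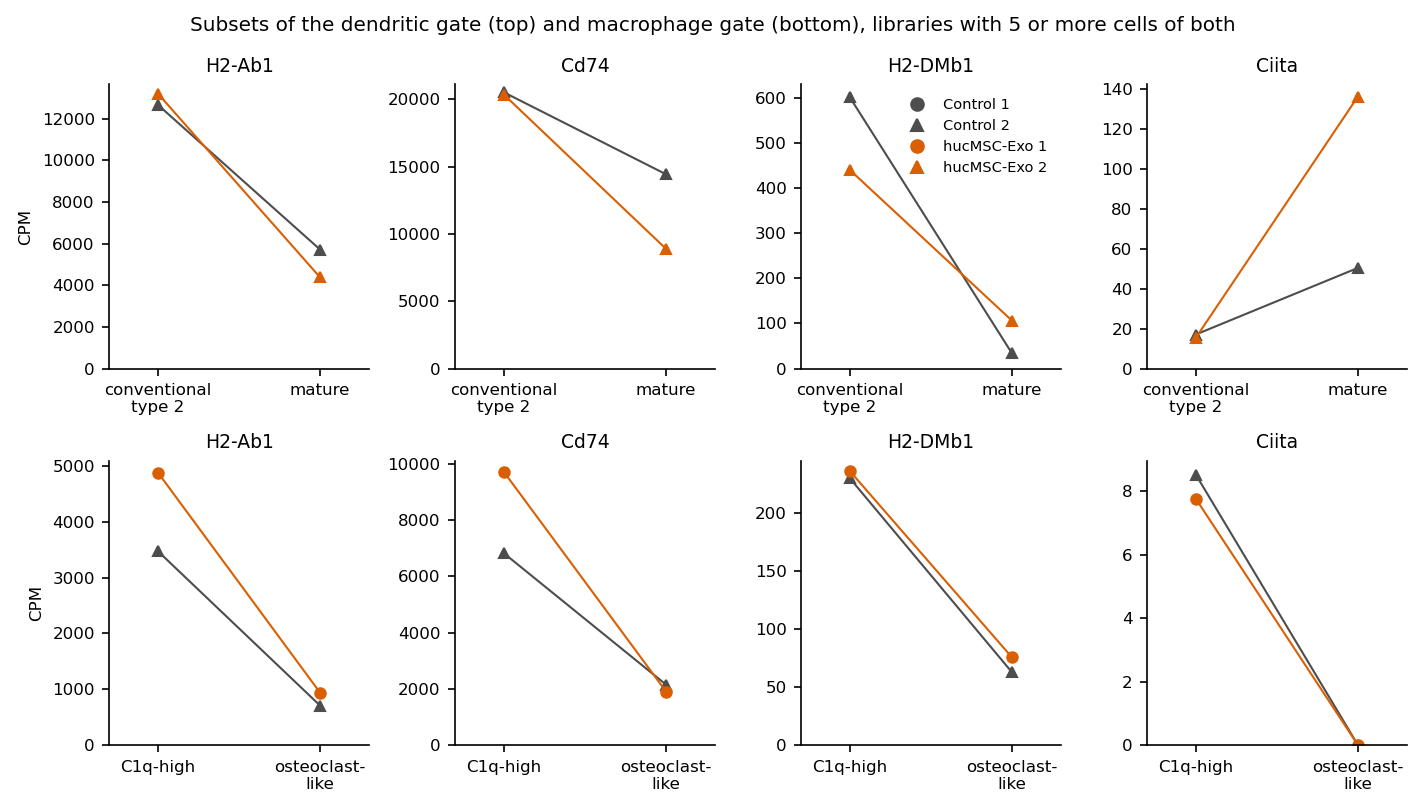
CPM of H2-Ab1, Cd74, H2-DMb1 and Ciita in subsets of the same library, joined by lines, for conventional type 2 and mature dendritic cells (top, Control 2 and hucMSC-Exo 2) and for C1q-high and osteoclast-like macrophages (bottom, Control 2 and hucMSC-Exo 1). H2-Ab1, Cd74 and H2-DMb1 fall in all 4 pairs, and Ciita rises in both dendritic pairs and is at 0 in osteoclast-like cells.

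T cells stood far below monocytes. Of the 9 genes 8 were higher in monocytes and 0 lower, against 25.5% of the 9248 genes called higher and 27.2% called lower, with H2-Ab1 at 4.95 (SE 0.40, adjusted p = 1.2e-11) and Cd74 at 4.94 (SE 0.32, adjusted p = 9.8e-14). H2-Eb2 had 0 to 2 UMIs per library in monocytes and did not pass. H2-DMb2 and Ciita passed but were near the floor, at 0 to 10.9 and 0 to 27.2 CPM in monocytes. Their library ranges overlapped those of T cells, which reached 1.97 and 1.88 CPM. The level in T cells split the libraries in a way that cut across the groups. H2-Ab1 was 156, 17.5, 218 and 24.2 CPM and Cd74 was 264, 77.6, 415 and 64.1 CPM. In Control 1 and hucMSC-Exo 1, 2 and 6 T cells had 1% or more of their UMIs in H2-Aa, H2-Ab1, H2-Eb1 and Cd74, and the top 5 cells held 87.0% and 79.0% of the gate's UMIs of these genes. Of these cells 2 of 2 and 5 of 6 had a UMI of Trdc, the gamma delta receptor constant gene, 0 had C1qb and 1 was called a doublet. Their median depth was 12016 and 9993 UMIs, against 3906 and 3359.5 for the other T cells of those libraries. Without them H2-Ab1 was 17.5 to 24.2 CPM and Cd74 64.1 to 82.6 CPM in all 4 libraries.

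**Figure D4:**
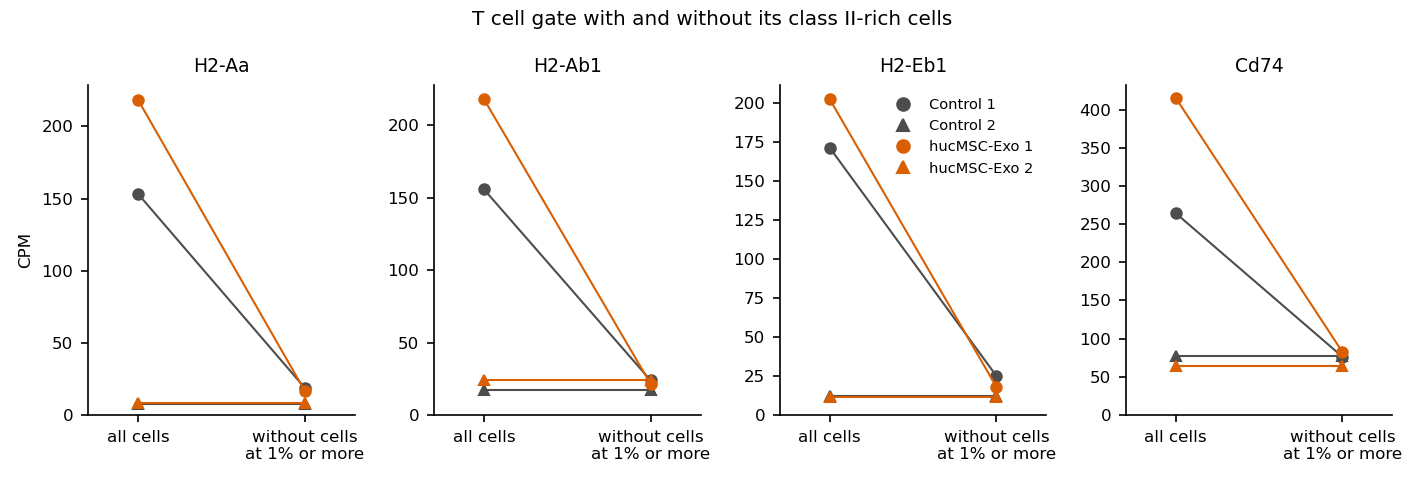
CPM of H2-Aa, H2-Ab1, H2-Eb1 and Cd74 in the T cell gate of each library, with all cells and without those at 1% or more, grey for Control, orange for hucMSC-Exo, circles for replicate 1 and triangles for replicate 2. Leaving out 2 cells of Control 1 and 6 of hucMSC-Exo 1 brings H2-Ab1 to 17.5 to 24.2 CPM in all libraries.

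The level of H2-Ab1 left in T cells was below that in neutrophils, which make little class II. In neutrophils H2-Ab1 was 36.3, 172, 93.6 and 48.6 CPM, and 79.2 CPM in Control 2 without its 1 neutrophil at 1% or more. A UMI of it was in 2.56% to 13.4% of all neutrophils, at a median depth of 1875 to 2187 UMIs. In T cells under 1% it was in 5.60% to 7.45%, at 3359.5 to 4387 UMIs. Those T cell shares lie within the neutrophil range and are not read as expression. H2-DMa differed, with a UMI in 1.79% to 5.22% of T cells under 1% and in 0% to 0.644% of neutrophils. Cd74 had no single order. Left in T cells it was 76.3, 77.6, 82.6 and 64.1 CPM. In neutrophils under 1% it was 60.5, 115, 46.8 and 120 CPM. Cd74 made up 67.4% and 59.3% of the 4 transcripts in T cells of Control 2 and hucMSC-Exo 2 (exact 95% intervals 62.3% to 72.2% and 53.9% to 64.5%, counting error only), and 35.5% and 39.4% in those of Control 1 and hucMSC-Exo 1 with the class II-rich cells counted. It was 34.9% to 40.5% in dendritic cells, 13.3% to 36.1% in neutrophils and 51.9% to 62.0% in plasmacytoid dendritic cells.

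ILC2 were too few for a firm level. H2-Ab1 was 0, 15.8, 42.6 and 80.1 CPM and Cd74 was 0, 127, 204 and 53.4 CPM on 5, 10, 42 and 7 cells. Ciita, H2-DMb2 and H2-Eb2 were listed at 0 UMIs in all 4. Control 2 and hucMSC-Exo 1 had enough cells for the test against T cells. There 0 of the 9 passed, and 0 had an unadjusted p under 0.05, by edgeR, which called 1.01% of the 9248 genes higher and 2.90% lower, and 0 of the 9 passed by DESeq2. The direction turned with the settings. With no upper limit on detected genes H2-Aa, H2-Ab1 and H2-Eb1 were lower in ILC2, H2-Ab1 by -2.39 (SE 0.43, adjusted p = 0.0017). With the class II-rich T cells left out, Cd74 was higher in ILC2 by 1.13 (SE 0.29, adjusted p = 0.020), as was H2-Eb1 by 1.55 (SE 0.43, adjusted p = 0.044). The last setting was chosen after the data were seen. It removed cells from the T cell side alone, by their share of H2-Aa, H2-Ab1, H2-Eb1 and Cd74, so its calls are a description.

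The comparison of the study, wounds given exosomes against wounds given PBS, showed no called change in the set. In macrophages 0 of 7 genes tested passed, where 0% of the 7772 genes tested were called by edgeR, 68 genes had an unadjusted p under 0.05 and DESeq2 called 0. In monocytes 0 of 6 passed, where 0% of 5000 genes were called, 77 had an unadjusted p under 0.05 and DESeq2 called 0. In T cells 0 of 6 passed, where 0% of 9751 genes were called, 244 had an unadjusted p under 0.05 and DESeq2 called 0. With sums of 5 or more cells, 0 of 7 passed in dendritic cells, where 0% of 2400 genes were called, 74 had an unadjusted p under 0.05 and DESeq2 called 1, and in ILC2 0% of 686 genes were called, 14 had an unadjusted p under 0.05, DESeq2 called 0 and 0 of the 9 passed the filter on low counts.

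The intervals say how large a difference these 4 libraries could hide. For H2-Ab1 the log2 difference, hucMSC-Exo over Control, was 0.11 in dendritic cells (95% interval -0.32 to 0.55), 0.11 in macrophages (-0.70 to 0.91), -0.14 in monocytes (-0.84 to 0.56) and 0.62 in T cells (-2.03 to 3.27). For Cd74 it was -0.15 (-0.54 to 0.25), 0.04 (-0.79 to 0.87), 0.06 (-0.63 to 0.75) and 0.60 (-1.39 to 2.59) in the same gates. Dendritic cells gave the narrowest intervals, and the T cell intervals are wide with the few class II-rich cells in them. In T cells without those cells H2-Ab1 differed by 0.25 and Cd74 by 0.0041. Those cells were set aside after the data were seen, by their share of H2-Aa, H2-Ab1, H2-Eb1 and Cd74. The cut thus used the very genes compared, so these differences are a description with no test.

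**Figure D5:**
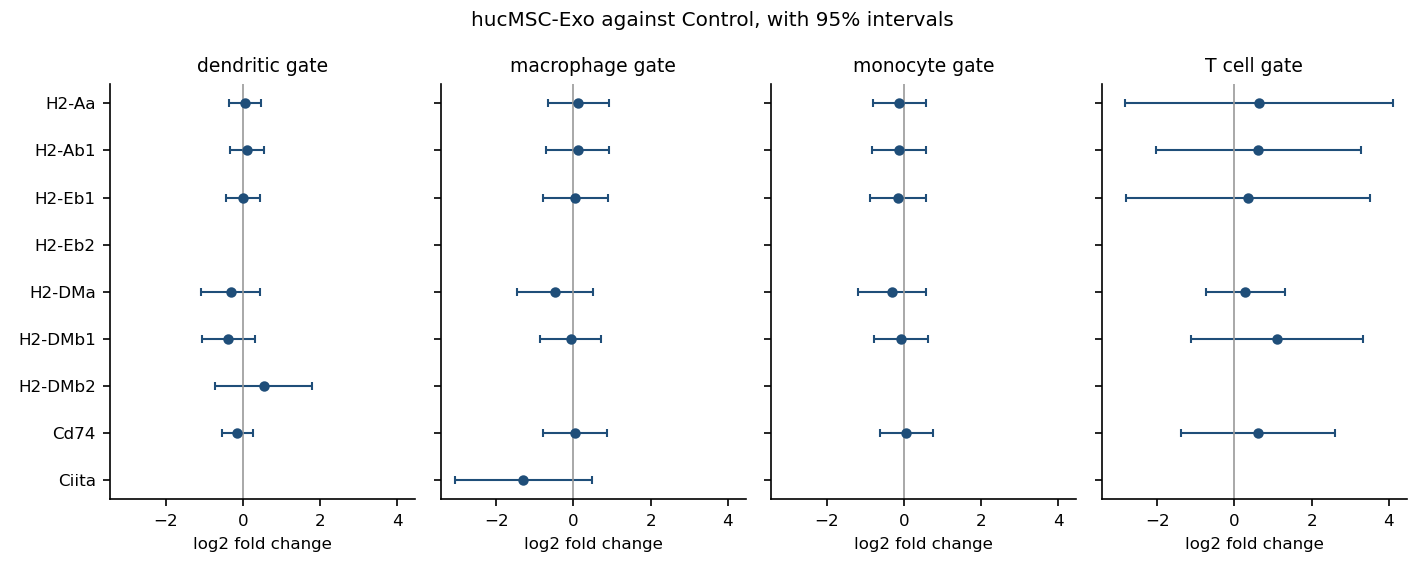
Log2 fold change, hucMSC-Exo over Control, with 95% intervals for the class II genes that passed the filter on low counts in 4 gates, on 1 shared axis. The dendritic panel uses sums of 5 or more cells. H2-Ab1 and Cd74 span 0 in all 4 gates, and the widest intervals are in T cells.

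Ciita was set by 1 library. In macrophages it measured 55.6, 7.99, 6.76 and 17.6 CPM, with a UMI in 28.0%, 4.76%, 3.37% and 7.34% of cells, so Control 1 stood above the other 3 and the groups overlapped. Dendritic cells gave 145, 25.8, 29.9 and 47.4 CPM and monocytes 27.2, 3.93, 0 and 11.9 CPM, with Control 1 highest in both gates. The log2 difference in macrophages was -1.30 (95% interval -3.08 to 0.48, adjusted p = 0.999). Without Control 1 it was 0.63, and without Control 2, which leaves Control 1 as the lone control, it was -2.22.

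Irf1, an interferon-gamma target, was also highest in Control 1, in some gates. In macrophages it was 193, 21.7, 27.7 and 45.4 CPM. In neutrophils it was 302, 27.6, 15.6 and 49.5 CPM, again with Control 1 highest. In dendritic cells Irf1 was 12.1, 21.0, 240 and 80.3 CPM, lowest in Control 1, where Ciita was highest. The 8 dendritic cells of Control 1 held 82941 UMIs in all. Their levels of both genes rest on very few molecules, and this order is not firm. In macrophages and in monocytes Control 1 was also the highest library for H2-Aa, H2-Ab1, H2-Eb1, Cd74, H2-DMa and H2-DMb1. The distance varied, from 4523 CPM of H2-Ab1 in macrophages against 4421 CPM in hucMSC-Exo 1, the next library, to 466 CPM of H2-DMa against 283 CPM in hucMSC-Exo 2. The part of Irf1 in the Ciita level was not tested.

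Genes whose level ran most like H2-Ab1 over the 20 sums of 5 gates and 4 libraries were taken from 6972 genes with a mean of at least 10 CPM, as a description. The 10 non-members with the highest Pearson's r on log2(CPM + 1) were Marcks (0.95), Spi1 (0.94), Cfp (0.93), Cd86 (0.93), Cxcl16 (0.93), Nuak2 (0.93), Dapk1 (0.93), Naaa (0.93), Hfe (0.93) and Csf2rb (0.92). Within the set H2-Eb1 (0.99), Cd74 (0.98) and H2-Aa (0.98) came closest, and H2-Eb2 (0.63) and H2-DMb2 (0.78) were farthest. The sums share libraries and gates, and Naaa is a marker that gated the dendritic cells.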

How the data were processed

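Single cells of 4 libraries (10x 3′ kit v3.1) were measured. The authors deposited raw UMI counts per gene and cell, made with Cell Ranger 6.1.2 on mm10 according to the submitters' processing notes. Cells were kept by the study's limits and gated by marker lists: at least 3 markers with a UMI and 2 more than any other gate. Counts were summed per library and gate (10 cells or more) and tested in edgeR 4.0.16 (quasi-likelihood, TMM, filterByExpr, Benjamini-Hochberg, 0.05), between the groups without a block and between gates with the library as a block. DESeq2 1.42.0 was an alternative. The tests were checked on simulated counts. The members, lists and rules were chosen with earlier results of these data known: all 9 members are given by level and gate fold change, Ciita, H2-Ab1 and Cd74 between the groups, and pathway genes by count. Doublet calls (35 of 6443 cells, 0.543%) were tried as an exclusion. Total counts were 6657095 to 16950639 UMIs per library. Intervals of shares cover counting error only. Same-numbered libraries deviated from their group means with a correlation of -0.29 in macrophages, -0.18 in monocytes and 0.29 in T cells. One gene of the pathway list is not reported here by value.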

Additional observations from a re-analysis of the deposited data

How the results depend on the processing

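Of 338 alternative values of the log2 fold changes of H2-Ab1, Cd74 and Ciita, 291 kept their direction and side of the threshold, 16 fell short of it, 9 passed it anew and 22 changed sign, 19 of them between hucMSC-Exo and Control; the causes were not tested. Of 149 alternative counts of called genes 133 were within 1.5 times the main count. A count of 0 beside a main count of 0 is among these, as in most settings between hucMSC-Exo and Control. The tally therefore says little about the comparisons that had calls. Between hucMSC-Exo and Control, leaving out 1 library leaves 1 in a group, so only the log2 differences are given. The log2 difference then ran from -0.12 to 0.40 for H2-Ab1, -0.24 to 0.42 for Cd74 and -2.22 to 0.63 for Ciita in macrophages, from -0.46 to 0.33 for H2-Ab1 and -0.27 to 0.54 for Cd74 in monocytes, from -1.64 to 2.74 for H2-Ab1 and -1.24 to 1.60 for Cd74 in T cells, and from -0.084 to 0.25 for H2-Ab1 in dendritic cells. A lone library left in a group was assumed to vary like the others. In monocytes H2-Ab1 was 0.37 with a stricter gate, and Cd74 was -0.15 with gates kept by cluster and -0.064 with no upper limit on detected genes. In T cells H2-Ab1 was -0.50 by cluster and -0.0047 with no upper limit, and Cd74 -0.46 and -0.0022.

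The counts that follow are of class II genes. Dendritic against macrophage cells gave 5 called genes without the library block, among them H2-DMb2 and H2-Eb2, which are set aside as above. There 2266 of all 9248 genes were called. Macrophages against monocytes gave 0 by DESeq2, 0 without the library block, 1 with gates kept by cluster, 4 without the filter on low counts, 4 with a stricter gate, 4 with the class II-rich T cells left out, and 1 to 3 with 1 library left out. Of all genes, 1474 of 9248 were called by DESeq2, 1219 of 9248 without the block and 1626 of 8247 by cluster. Without the filter 1699 of 17928 were called, with the stricter gate 1651 of 9987 and without those T cells 1595 of 9258. Leaving out 1 library gave 765 of 8385 to 1649 of 8556. With no upper limit on detected genes 1 gene was higher and 2 were lower in macrophages, against 1230 and 1109 of all 9200 genes. ILC2 against T cells gave 1 without the filter and 3 with no upper limit, all lower in ILC2. In those settings 423 of 17928 and 184 of 9200 genes were called lower. Without the class II-rich T cells, a cut made on class II genes themselves, 2 were higher, where 95 of 9258 genes were called higher. H2-Ab1 was then 0.64 and Cd74 1.13. With all T cells kept, leaving out 1 library took Cd74 from -0.43 to 0.13. Mature against conventional cells gave 2 by DESeq2, 3 with a stricter gate, 3 without the library block and 3 to 7 with 1 library left out. Same-numbered libraries deviated in opposite directions in macrophages and monocytes and together in T cells, so the numbers were not taken as pairs; with the replicate block 0 class II genes were called between the groups in any gate, and 0 with the numbers crossed, a pairing tried after the data were seen. Thinned to 1000 UMIs a cell, 28 of 45 median shares of cells with a UMI moved by more than 1 SD over the libraries.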

Other observations

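Class II transcripts were also seen outside the 5 gates. Plasmacytoid dendritic cells, of which there were 5, 13, 10 and 16, had 3393, 3238, 2563 and 3148 CPM of Cd74 and 736, 997, 824 and 503 CPM of H2-Ab1. The keratinocyte gate, with 19, 21, 51 and 30 cells, had 4847, 1420, 1203 and 2201 CPM of H2-Ab1. In it 10, 4, 6 and 6 cells had 1% or more of their UMIs in H2-Aa, H2-Ab1, H2-Eb1 and Cd74, and 2, 0, 2 and 1 of those had a UMI of Cd207, the langerin gene of Langerhans cells. Their median depth was 820 to 1860 UMIs. The 6, 10, 5 and 8 mast cells had 0 UMIs of H2-Ab1 and of Cd74, and those of hucMSC-Exo 2 had 2 UMIs of H2-Aa and 1 of H2-Eb1. Cells in no gate held 28.1% to 36.1% of the UMIs of the 4 genes in a library, so the gates do not account for all class II RNA. Among monocytes 17.9% to 21.2% of cells had Cd74 as the single one of the 4 genes detected, against 2.40% to 8.81% of macrophages and 0 of the dendritic cells.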
